A study of Mus musculus with 2 samples.

Results

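H2AZ peaks were described at 10 mouse genes of bone morphogenetic protein (BMP) signalling, chosen by name out of 21774 protein-coding genes. These were the ligand genes Bmp2, Bmp4, Bmp5, Bmp6 and Bmp7, the receptor genes Bmpr1a, Bmpr1b and Bmpr2, and the genes of the secreted antagonists noggin (Nog) and chordin (Chrd). The study applied chromatin immunoprecipitation with sequencing (ChIP-seq) to neural progenitor cells from C57BL/6 mouse brain at embryonic day 13, with 1 H2AZ library and 1 input library. The deposited values were a list of peaks, of which 21546 were used, each with a position and a score. The 2 libraries had no replicates, so no difference was tested, and counts of reads were not analysed here. The labels name no allele, transgene or treatment, and they do not say whether embryos were pooled.

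H2AZ is a histone variant that takes the place of H2A in a part of the nucleosomes, often in those that flank the start of a gene. BMP ligands are secreted dimers that bring together type I receptors (the proteins of Bmpr1a and Bmpr1b) and a type II receptor (that of Bmpr2), which phosphorylates the type I receptor; SMAD proteins then carry the signal to the nucleus. Noggin and chordin bind the ligands outside the cell and keep them from their receptors. In the embryonic brain BMPs from the dorsal midline pattern the dorsal neural tube, and inhibition of the pathway by antagonists is part of neural induction.

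A peak was said to be at a gene end if any of its bases fell within 1 kb of that end, inside if it overlapped the gene and lay farther than that from both ends, and flanking if it lay outside the gene and within 20 kb. By these definitions 8 of the 10 genes had a peak, against 70.3% of all protein-coding genes, and Bmp5 and Nog had none. An end peak was present at 7 of the 10 genes, against 55.4% of all protein-coding genes. The end share also differed with gene length, so 55.4% is not matched to these 10 genes. It was 38.8% under 10 kb, 63.2% at 10 to 50 kb, 67.8% at 50 to 150 kb and 66.8% at 150 kb and over. Interior peaks were present in 3 of the 10 (Bmp4, Bmp7 and Bmpr1b), against 13.8% of all protein-coding genes. The interior share rose with gene length. It was 1.79% under 10 kb, 13.5% at 10 to 50 kb, 27.3% at 50 to 150 kb and 48.5% at 150 kb and over. Bmp5, Bmp6, Bmp7 and the 3 receptor genes are longer than 50 kb, so 13.8% is too low a background for these 10 genes. Flanking peaks were present at 2 of the 10 (Bmp7 and Chrd), against 44.2%. In all, the genes had 14 peaks, of which 7 were at an end, 5 inside and 2 in a flank. The score was assigned to each peak by the authors, and the file names no unit for it; it served to rank peaks within this list, where it ran from 3.72 to 38.78.

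**Figure D1:**
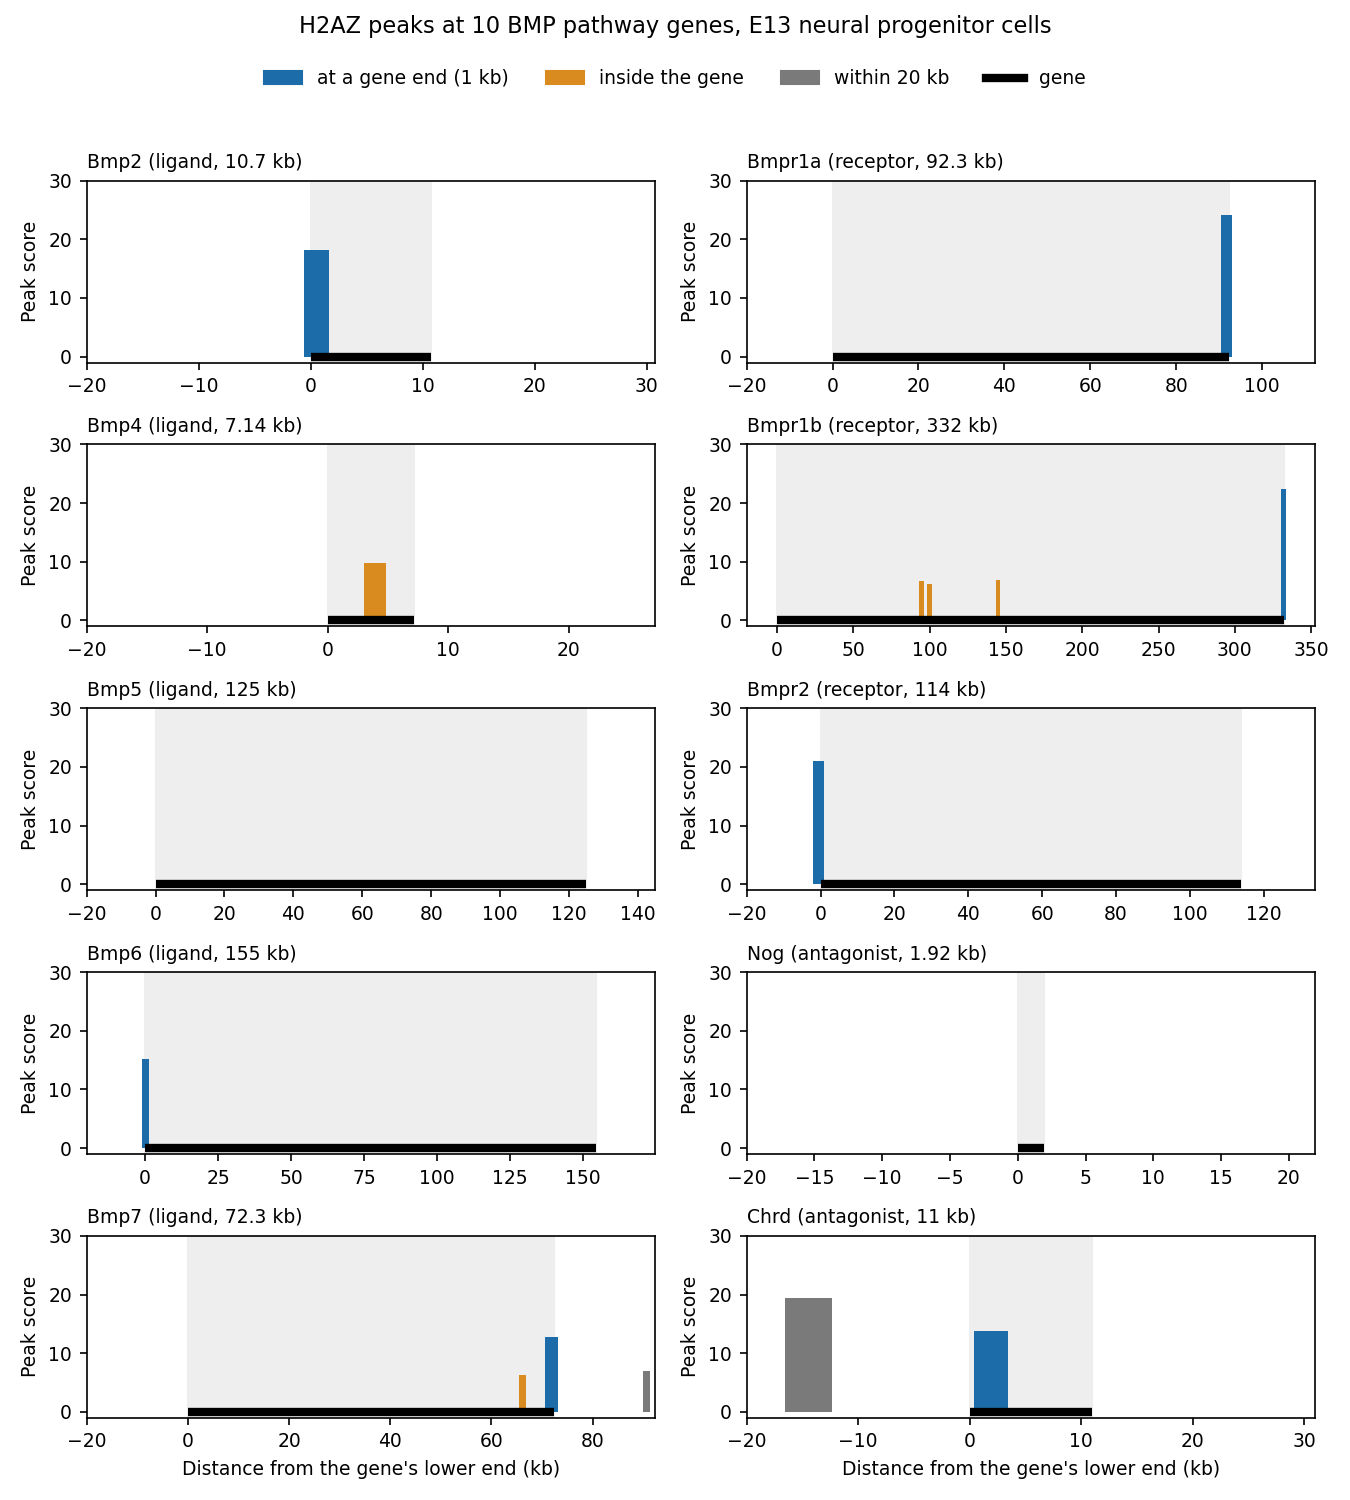
Peaks at the 10 BMP genes. Each panel shows 1 gene (black line, grey band) with 20 kb on either side, the horizontal axis gives the distance from the gene's lower coordinate in kb, and the height of a bar gives the peak's score; narrow peaks are drawn wider than they are so that they can be seen. End peaks (blue) stand at 1 end of 7 genes, Bmpr1b has 3 low interior peaks (orange), and the panels of Bmp5 and Nog are empty.

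The RefSeq promoter table used here (GRCm38.p6) lists starts of transcription for 7 of the 10 genes. Bmp2, Bmp7 and Nog are not in that table, which does not hold every annotated gene. The 250 bases before the start are shown here because the starts under an end peak and those under no peak differed in the number of CpG dinucleotides, which are in capitals. Bmp6 (chr13:38345466-38345715, plus strand), Bmpr1a (chr14:34502547-34502796, minus strand), Bmpr2 (chr1:59764029-59764278, plus strand) and Chrd (chr16:20732877-20733126, plus strand) have starts that lay under a peak at a gene end. Bmp4 (chr14:46390670-46390919, minus strand) and Bmp5 (chr9:75775115-75775364, plus strand) have starts that lay under no listed peak. A start inside Bmpr1b (chr3:141982265-141982514, minus strand) and that of the long non-coding RNA gene Gm15222 (chr14:46387228-46387477, plus strand) both lay under interior peaks. The Gm15222 start lies inside Bmp4, on the other strand. The Bmpr1b and Gm15222 starts were chosen after their values were seen. All are written 5′ to 3′ along the strand of the gene.
Bmp6: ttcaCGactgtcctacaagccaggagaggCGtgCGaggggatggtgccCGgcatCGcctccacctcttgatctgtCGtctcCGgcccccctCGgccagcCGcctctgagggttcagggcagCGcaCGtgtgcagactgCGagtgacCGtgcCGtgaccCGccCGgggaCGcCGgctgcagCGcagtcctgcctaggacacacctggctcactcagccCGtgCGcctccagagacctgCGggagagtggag
Bmpr1a: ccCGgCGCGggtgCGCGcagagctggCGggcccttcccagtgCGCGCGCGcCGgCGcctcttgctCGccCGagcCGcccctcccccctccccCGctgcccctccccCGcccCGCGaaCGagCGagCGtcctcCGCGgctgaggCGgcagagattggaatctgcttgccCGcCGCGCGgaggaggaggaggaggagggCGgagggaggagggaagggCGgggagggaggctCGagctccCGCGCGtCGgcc
Bmpr2: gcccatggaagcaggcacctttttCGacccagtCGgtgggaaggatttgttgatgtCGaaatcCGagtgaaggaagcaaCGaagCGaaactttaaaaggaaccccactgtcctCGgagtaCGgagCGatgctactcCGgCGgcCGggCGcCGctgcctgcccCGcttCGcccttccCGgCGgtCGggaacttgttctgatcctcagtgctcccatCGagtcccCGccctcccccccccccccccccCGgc
Chrd: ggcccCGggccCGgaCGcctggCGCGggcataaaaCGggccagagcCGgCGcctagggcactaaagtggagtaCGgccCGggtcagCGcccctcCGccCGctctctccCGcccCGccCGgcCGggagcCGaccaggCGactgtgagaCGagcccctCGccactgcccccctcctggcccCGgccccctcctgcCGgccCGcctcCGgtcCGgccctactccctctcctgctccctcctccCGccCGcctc
Bmp4: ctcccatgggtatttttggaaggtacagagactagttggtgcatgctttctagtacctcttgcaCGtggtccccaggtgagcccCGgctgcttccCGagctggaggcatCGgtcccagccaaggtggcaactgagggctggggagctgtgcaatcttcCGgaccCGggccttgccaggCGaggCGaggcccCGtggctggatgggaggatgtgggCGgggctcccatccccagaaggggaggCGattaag
Bmp5: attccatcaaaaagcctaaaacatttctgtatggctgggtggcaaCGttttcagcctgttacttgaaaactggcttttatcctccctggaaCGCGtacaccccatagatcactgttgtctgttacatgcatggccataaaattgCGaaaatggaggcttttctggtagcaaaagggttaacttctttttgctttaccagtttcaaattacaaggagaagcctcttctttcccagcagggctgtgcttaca
Bmpr1b: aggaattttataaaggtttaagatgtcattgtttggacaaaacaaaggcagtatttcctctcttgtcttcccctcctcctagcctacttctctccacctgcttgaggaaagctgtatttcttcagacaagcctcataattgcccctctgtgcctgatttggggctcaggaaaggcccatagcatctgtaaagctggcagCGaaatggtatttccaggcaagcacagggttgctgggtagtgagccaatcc
Gm15222: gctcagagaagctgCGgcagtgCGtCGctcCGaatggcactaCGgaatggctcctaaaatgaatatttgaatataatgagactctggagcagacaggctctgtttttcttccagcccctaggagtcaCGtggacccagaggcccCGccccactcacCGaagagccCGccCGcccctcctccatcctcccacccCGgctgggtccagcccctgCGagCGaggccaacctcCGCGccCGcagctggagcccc

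Among the BMP genes, the sequences before the 4 starts under an end peak held the most CpGs. There were 36 in the 250 bases of Bmpr1a, 28 in those of Chrd, and 22 each in those of Bmp6 and Bmpr2. The starts under no peak had fewer, with 11 in Bmp4 and 4 in Bmp5. The Bmpr1b start held 1 and lay under a peak even so, while Gm15222, whose start lay inside Bmp4, held 16.

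Of the ligand genes, Bmp2, Bmp6 and Bmp7 had an end peak. Bmp2, which encodes a ligand known for bone and heart development, spans 10.7 kb on chromosome 2 (133552159 to 133562896). Its only peak, from 133551527 to 133553801, had a score of 18.2 and ranked 5120 of all peaks. The peak's midpoint lay 505 bp from the lower end of the gene. No other listed peak lay within 114 kb below the gene or 787 kb above it. Of protein-coding genes of 10 to 50 kb, the length class of Bmp2 and Chrd, 63.2% had an end peak.

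Bmp6 spans 154599 bp on chromosome 13 (38345716 to 38500314). Its peak, from 38344499 to 38347039, had a score of 15.21 and was centred 53 bp from the start of the gene. It reached 1217 bp upstream and 1323 bp downstream of the start, and no further peak was listed in the rest of the gene. The other end of Bmp6, which overlaps Txndc5, had no peak within 1 kb. In its length class, 150 kb and over, 66.8% of protein-coding genes had an end peak.

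Bmp7, a ligand needed for eye and kidney development, was the ligand gene with the most peaks. It spans 72.3 kb on chromosome 2 (172868012 to 172940321) and had a peak of each kind, all in or near its higher end. The end peak (172938603 to 172941153) scored 12.83. The interior peak (172933442 to 172934845) scored 6.26, and the flanking peak (172958005 to 172959393), 17.7 kb outside the gene, scored 6.9. The end peak was the highest of the 3, and it had the lowest score among the end peaks of all 7 genes. Within Bmp7 RefSeq lists 2 starts of a long non-coding RNA gene, Gm40010. The interior peak was centred 2.5 bp from one of them, and the end peak covered the other, 233 bp from its midpoint. The flanking peak covered no listed start, the nearest being 19.1 kb away. Of protein-coding genes of 50 to 150 kb, the class of Bmp7, Bmp5, Bmpr1a and Bmpr2, 67.8% had an end peak and 27.3% an interior peak.

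Bmp4, a ligand of the dorsal midline, had no end peak, but it did hold an interior peak. The gene is 7145 bp long (chromosome 14, 46383525 to 46390669), and the peak lay from 46386498 to 46388395 with a score of 9.84, rank 12977. Its nearer edge was 2274 bp from the start of Bmp4. The peak's midpoint was 31.5 bp from the start of Gm15222, which is transcribed from the opposite strand, and the peak reached 980 bp upstream and 917 bp downstream of that start. The peak could thus not be assigned to Bmp4 or to Gm15222 from its position. Among protein-coding genes under 10 kb, 1.79% had an interior peak and 38.8% an end peak.

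Bmp5, the gene mutated in short ear mice, had no peak of any kind over 125 kb (chromosome 9, 75775365 to 75900316). The nearest listed peaks lay 89.9 kb below the gene and 114 kb above it, with scores of 16.11 and 19.74, and these were end peaks of the neighbouring genes Scg3 and Hmgcll1. Of protein-coding genes of 50 to 150 kb, 15.2% had no peak at an end, inside or within 20 kb.

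All 3 receptor genes had an end peak, and their scores of 21.0 to 24.16 were all above those of the 3 ligand genes, 12.83 to 18.2, and of Chrd, 13.72. Among the 12060 protein-coding genes with an end peak, the highest end score had a median of 17.1 (quartiles 12.9 and 21.25); over the 7 BMP genes the median was 18.2. Bmpr1a stood at percentile 87.6 of those genes, Bmpr1b at 80.6 and Bmpr2 at 73.7. Bmp2 stood at percentile 57.5, Bmp6 at 38.4, Chrd at 29.9 and Bmp7 at 25.0. The receptor genes thus lay in the upper part of the range and the other genes across its middle and lower part, a description of a single list that was not tested.

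**Figure D2:**
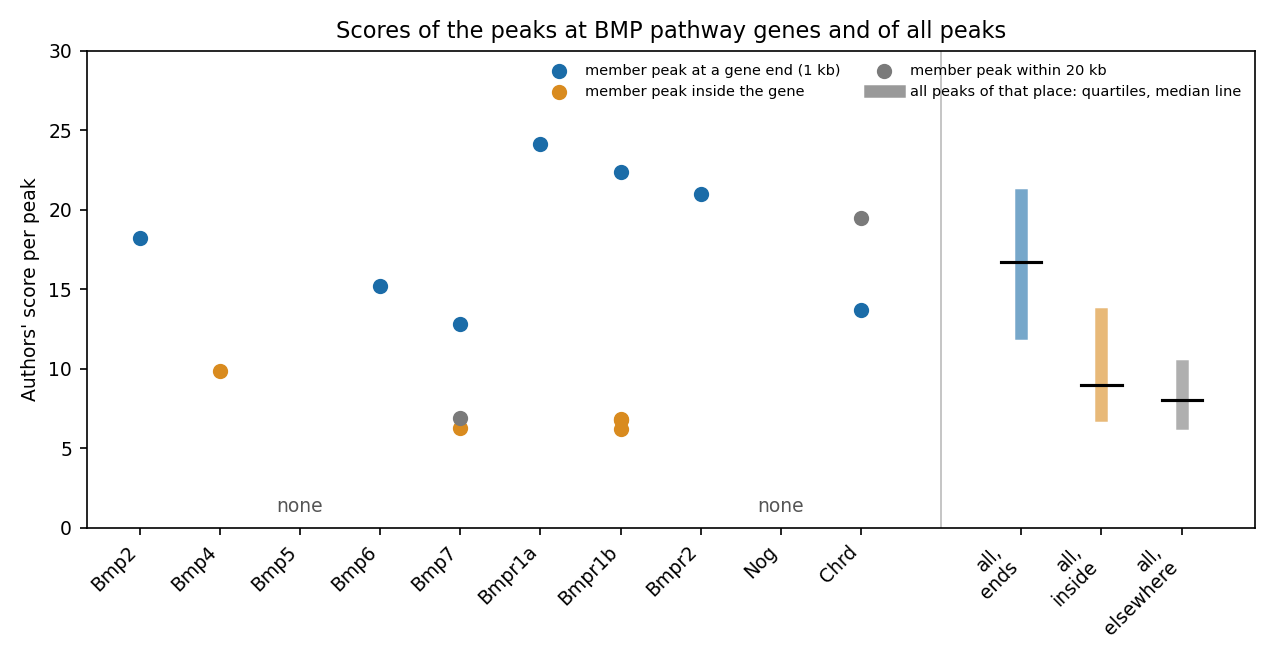
Scores of the 14 peaks by gene (points, coloured by place) beside those of all peaks at gene ends, inside genes and elsewhere (bars from the lower to the upper quartile, with a line at the median). The end peaks of Bmpr1a, Bmpr1b and Bmpr2 score 21.0 to 24.16, above the median of 16.7 for all end peaks, and the 5 interior peaks score 6.18 to 9.84.

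Bmpr1a, a type I receptor gene of 92.3 kb (chromosome 14, 34411061 to 34503336), had the highest-scoring peak of the 10 genes. The peak, from 34501459 to 34504079, scored 24.16 and ranked 1445 among all peaks. It covered the listed start, reaching 1533 bp upstream and 1087 bp downstream of it. Bmpr2, the type II receptor gene (chromosome 1, 59764279 to 59878081), had 1 peak, from 59762109 to 59765299, with a score of 21.0 and rank 3140. At 3191 bp it was the widest of the 7 end peaks, and it lay mostly before the gene, with 2170 bp upstream of the start and 1020 bp downstream. The next listed peak, 24.0 kb below Bmpr2, lay just beyond the 20 kb limit and scored 5.37.

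Bmpr1b, the other type I receptor gene, was the longest of the 10 (332 kb; chromosome 3, 141837135 to 142169585) and had the most peaks. Its end peak, from 142168042 to 142170288, scored 22.37 and ranked 2293. The 3 interior peaks lay 144 kb, 99.1 kb and 93.9 kb inside the lower end, with scores of 6.86, 6.18 and 6.77, at percentiles 14.5, 7.96 and 13.2 of the list. RefSeq lists 3 further starts within Bmpr1b, and all 3 lay under interior peaks. The peak from 141981173 to 141982709 covered 1 of them, and that from 141931004 to 141932090 covered 2, with its midpoint 41 bp from the nearer one. The peak from 141936283 to 141937634 covered none and was 5.37 kb from the nearest. The table does not list a start at the outermost end of the gene, where the highest peak lay. Of protein-coding genes of 150 kb and over, 48.5% had an interior peak, and 11.6% had at least 4 peaks at the ends and inside.

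The antagonist genes differed in that Chrd had peaks and Nog had none. Chrd (chromosome 16, 20731425 to 20742384) had an end peak from 20731837 to 20734895 with a score of 13.72. Its nearer edge lay 412 bp inside the lower end, and its midpoint was 1.94 kb from that end but 239 bp from the listed start of Chrd. The same peak covered a start of Thpo, the thrombopoietin gene, which overlaps Chrd on the other strand, so it was not specific to Chrd by position. The flanking peak, 12.3 kb below the gene (20714830 to 20719096), scored 19.48, higher than the end peak. At 4267 bp it was the widest of the 14, and it touched the ends of Clcn2 and Polr2h and covered 3 of their starts.

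Nog is the shortest of the genes at 1922 bp (chromosome 11, 89300638 to 89302559). The nearest listed peaks lay 2480 kb below it and 699 kb above it, a stretch of 3180 kb. Its neighbours Gm525, 208 kb below, and Ankfn1, 87.5 kb above, also had no end peak. Of the 6142 protein-coding genes that had no peak at an end, inside or within 20 kb and lay between listed peaks, 12.6% were in a stretch at least that long, and 70.3% were in one at least as long as the 329 kb around Bmp5. Of protein-coding genes under 10 kb, 47.8% had no peak at an end, inside or within 20 kb.

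Not every numbered peak was analysed here, since numbers up to 32646 occur among 21592 listed peaks. The numbers follow position along each chromosome in the used peaks without exception, so, if the caller numbered all its peaks in this way, a missing number stands for a called peak between its listed neighbours. The listed peaks on either side of Bmp5 were numbered 17174 and 17175, with no number missing between them. Around Nog, 2 numbers were missing between the listed peaks, 21034 and 21037. At Bmp4, 2 numbers were missing between the listed peak below the gene, 25349, and the interior peak, 25352, and none between the interior peak and the next above, 25353, a stretch that holds the Bmp4 start. At Bmp2, 3 numbers were missing between its peak, 3973, and the next listed above, 3977. Between the Bmp6 peak, 23812, and the next above, 23817, 4 were missing, a stretch that holds the rest of Bmp6. At Bmp7, 4 were missing between the listed peak below the gene, 4657, and the interior peak, 4662. Around Bmpr1b, 6 were missing between the outer listed peaks, 6405 and 6416, but none from 6411 to 6414, the gene's own 4 peaks. Bmpr1a, Bmpr2 and Chrd had 1 missing each. At Bmpr1a it fell between the end peak, 25293, and the next above, 25295, a stretch outside the gene. Interior peaks may be among the other missing numbers. The numbers place a missing peak between its listed neighbours and no more closely.

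Some peaks of these genes lay over a listed start of the gene itself and others over starts of other genes. Of the 14 peaks, 10 covered at least 1 start of a coding or non-coding gene, against 46.0% of all peaks used. Of the 7 end peaks, all but those of Bmp2 and Bmpr1b covered a start, against 74.1% among end peaks of all protein-coding genes. Of the 5 interior peaks all but 1 did, against 27.4% among interior peaks that touched no such end. At Bmp4 and Bmp7 the covered starts were only those of Gm15222 and Gm40010. Under the flanking peak of Chrd they were only those of Clcn2 and Polr2h. Bmp7 has no start of its own in the table. The 4 peaks with no listed start were the end peaks of Bmp2 and Bmpr1b, the flanking peak of Bmp7 and 1 interior peak of Bmpr1b; Bmp2 is not in the table, so nothing follows for it. Of the 9 listed starts of the BMP genes, 7 lay under a peak, against 52.5% of the starts of all protein-coding genes. Of these 7, 3 were inner starts of Bmpr1b, 2 of them under the same peak, so the 7 are not independent. By the strand in the same table, 5 of 7 genes had a peak within 1 kb of the 5′ end of the gene and 0 of 7 at the 3′ end, against 53.1% and 7.29% of all protein-coding genes in the table.

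**Figure D3:**
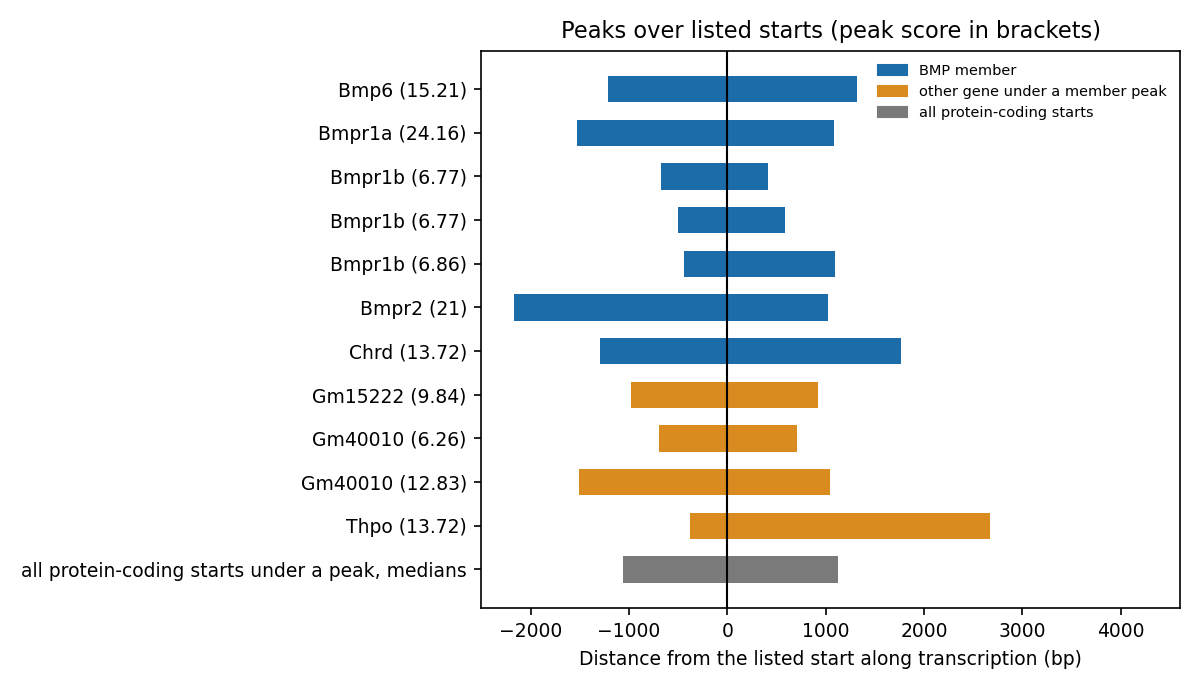
Extent of the peaks over listed starts. Each bar runs from the upstream to the downstream edge of the peak in bp along the direction of transcription, with the start at 0 and the peak's score in brackets; BMP genes are in blue, other genes whose start lies under a BMP gene's peak in orange, and the medians over all protein-coding starts under a peak in grey. The Bmpr2 peak extends farthest upstream (2170 bp), and the peaks over the 3 inner starts of Bmpr1b extend least far upstream (445 to 670 bp) among the BMP genes.

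Over all protein-coding starts under a peak, the peak reached a median of 1062.5 bp upstream and 1122.0 bp downstream. The peaks at Bmp6, Bmpr1a, Bmpr2 and Chrd reached farther upstream, from 1217 to 2170 bp. At the inner starts of Bmpr1b they reached 445 to 670 bp upstream. The 7 end peaks were 2247 to 3191 bp wide with a median of 2551.0 bp, against 2180.0 bp for all peaks at protein-coding gene ends (quartiles 1858.5 and 2489.0 bp). The 5 interior peaks were narrower, from 1087 to 1898 bp, against a median of 1689.0 bp for all interior peaks.

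The ratio of observed to expected CpG dinucleotides over the 250 bases before and 50 after a start, where 1 would mean as many as the base composition gives, followed the same split. It was 1.02 for Bmpr1a, 0.885 for Bmpr2, 0.8 for Chrd and 0.751 for Bmp6, all under an end peak. It was 0.419 for Bmp4 and 0.284 for Bmp5, which were under no peak. The inner starts of Bmpr1b, at 0.258 to 0.291, were close to that of Bmp5 and lay under peaks of score 6.77 and 6.86. At Gm15222, under the interior peak of Bmp4, it was 0.673. Starts of all protein-coding genes had a median of 0.766 under a peak and 0.229 elsewhere. Of starts with a ratio from 0.2 to 0.4, the range of Bmp5 and the Bmpr1b starts, 25.0% lay under a peak, and from 0.4 to 0.6, that of Bmp4, 63.1% did.

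**Figure D4:**
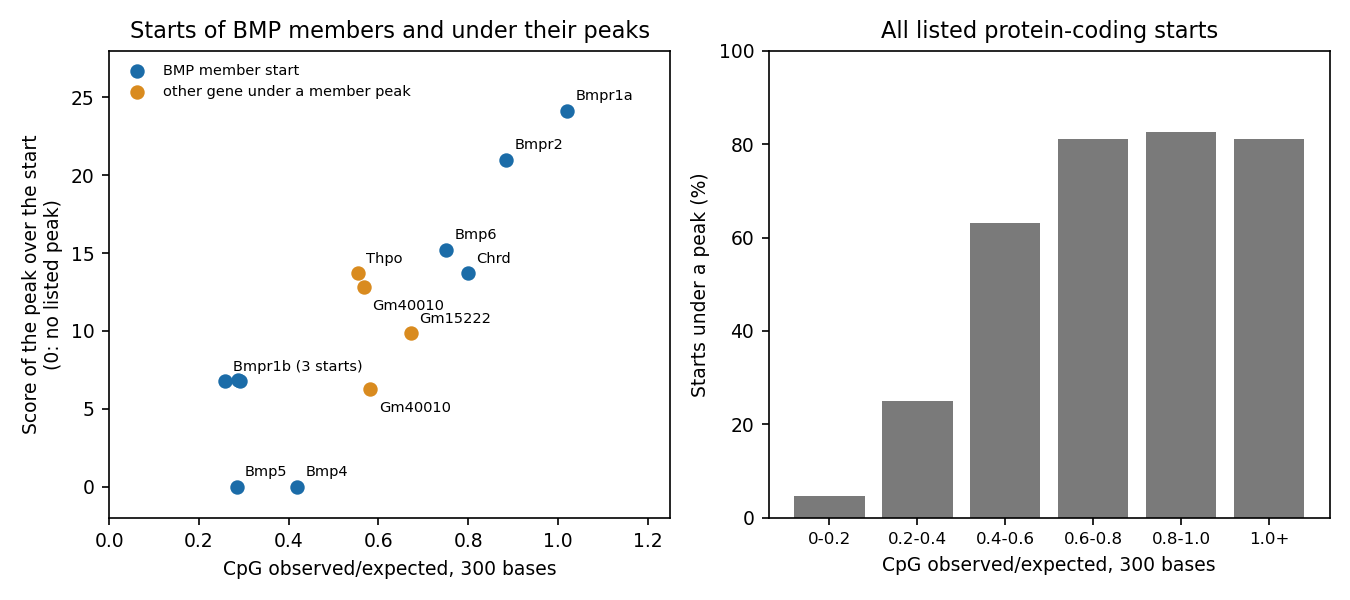
CpG content of starts. Left, the ratio of observed to expected CpG over 300 bases against the score of the peak over the start (0 where no listed peak covers it), for the BMP genes (blue) and for other starts under their peaks (orange). Right, the percentage of all listed protein-coding starts that lie under a peak, by the same ratio. Bmp6, Chrd, Bmpr2 and Bmpr1a stand at ratios of 0.751 to 1.02 with scores of 13.72 to 24.16, and Bmp5 and Bmp4 stand at 0.284 and 0.419 with no peak.

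Short motifs were searched on both strands in the 250 bases before each of the 9 listed starts. The windows of 2 inner starts of Bmpr1b overlap. The shares beside the counts are over promoters of coding and non-coding genes, whereas all 9 starts belong to protein-coding genes. GGCGCC, a GC-rich sequence bound by SMAD proteins, was present at 3 of 9 (Bmpr1a, Bmpr2 and Chrd), against 9.59% of all 32851 promoters of the table. GGGCGG, the GC box, was present at 5 of 9 (Bmp4, Bmp6, Bmpr1a, Bmpr2 and Chrd), against 32.7%. CACGTG, the E-box, was present at Bmp4 and Bmp6, against 6.02%. TATAAA, the TATA box, was found in 1 of 9, an inner start of Bmpr1b, against 12.4%, and there it began 244 and 242 bases before the start, as overlapping matches on opposite strands. GTCTAGAC, the SMAD palindrome, was found at 0 of 9, against 0.167%. Matches of different motifs did not overlap. GGCGCC and GGGCGG are rich in C and G, as are the promoters that held them. A match describes the letters and not binding.

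The wider pathway was described with 51 further genes in 5 lists. An end peak was present at 39 of the 51 (76.5%), against 55.4% of all protein-coding genes, with a median score of 14.3 against 17.1. Both the share above and the median below the background describe this one list of peaks and were not tested.

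**Figure D5:**
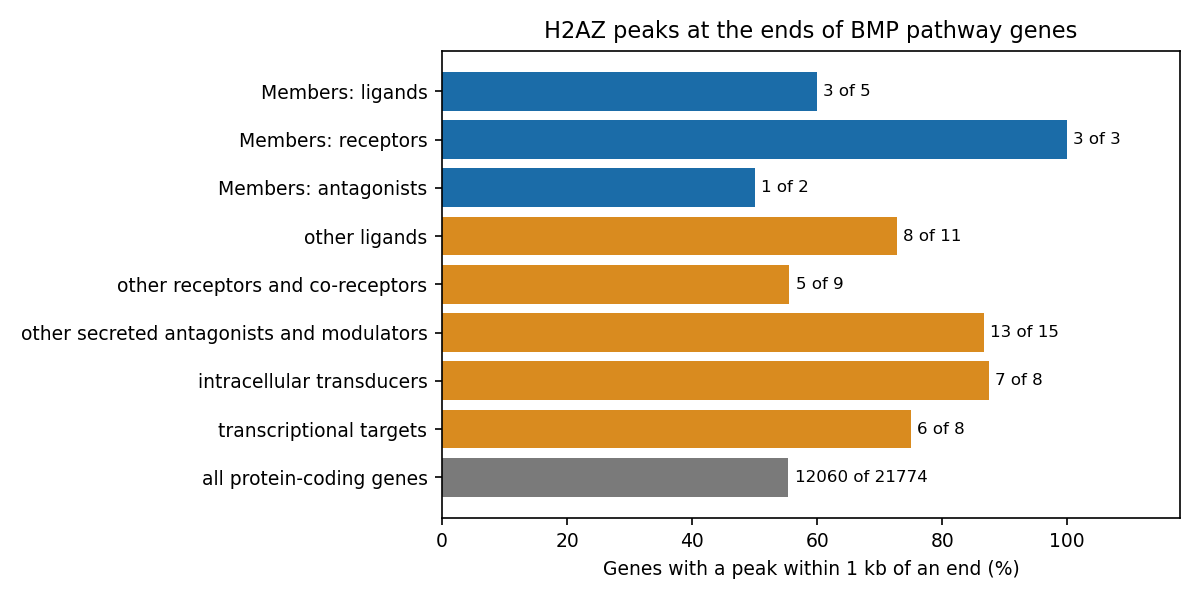
Percentage of genes with a peak within 1 kb of an end, for the 10 BMP genes by role (blue), 5 lists of further pathway genes (orange) and all protein-coding genes (grey), with the counts beside the bars. Receptors among the 10 genes reach 3 of 3 and intracellular transducers 7 of 8, while other receptors and co-receptors reach 5 of 9, beside 55.4% of all protein-coding genes.

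Of 11 other ligand genes 8 had an end peak, against 55.4% of all protein-coding genes, with a median score of 11.6. Bmp8a (18.77) and Bmp3 (16.11) were highest, and Bmp10, a ligand of the heart, and Bmp15, of the ovary, had none. Of 9 other receptor and co-receptor genes 5 had one (55.6%, against 55.4% of all protein-coding genes), with a median score of 13.2, against 17.1 over all genes with an end peak. The highest were the type II receptor gene Acvr2b (22.07) and the type I receptor gene Acvr1 (14.32). The Acvr1 peak also touched an end of Upp2. Acvr2a and Bambi, which encodes a pseudoreceptor, had no end peak.

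Of 15 other genes of secreted antagonists and modulators 13 had an end peak, against 55.4% of all protein-coding genes, with a median score of 14.6. The highest were Tll1 (26.85), which encodes a protease of the family that cleaves chordin, and Bmper (25.46), which encodes a BMP-binding protein. Cer1, an antagonist of the early embryo, had no peak at an end or inside, and Fstl3 had an interior peak of 8.05 and no end peak. Nog and Cer1 were thus the antagonist genes with neither kind of peak.

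Of 8 genes of intracellular transducers 7 had an end peak, against 55.4% of all protein-coding genes, with a median score of 17.7. Smurf1, a ubiquitin ligase gene, scored 23.86 and Smad9, one of the BMP-responsive SMAD genes, 22.67. Smad7, an inhibitory SMAD gene, had none. Of 8 genes known as transcriptional targets of the pathway 6 had one, against the same 55.4%, with the lowest median score of the 5 lists, 9.99. Hey1 (19.09) and Atoh8 (14.62) were highest, and Id1 and Msx2 had no end peak. The Hey1 peak also touched an end of the gene LOC115489673.

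Marker genes of cell types were also described. Of 6 neural progenitor marker genes, 5 had an end peak, against 55.4% of all protein-coding genes. These were Nes, Pax6, Hes5, Vim and Fabp7, at scores of 6.56 to 12.95, and Sox2 had none. The Hes5 peak lay outside the gene and also touched an end of Pank4. Of marker genes of other cells the sample could hold, end peaks were present at 2 of 3 for neurons, 2 of 3 for meninges and choroid plexus, 1 of 3 for endothelium, 0 of 3 for microglia and 0 of 2 for erythroid cells. Of the neuron genes, the Tubb3 peak also touched an end of Mc1r and the Neurod6 peak lay outside the gene. The end peaks of Foxc1 (meninges and choroid plexus, 13.51) and Kdr (endothelium, 16.41) scored above those of all the progenitor genes. Those of Tubb3 (10.14), Neurod6 (10.74) and Col1a1 (meninges and choroid plexus, 8.95) lay within the progenitor range. A peak is not a measure of expression, so these counts and scores do not check the cell type in the labels. The part of other cells in the peaks of BMP genes was not tested.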

How the data were processed

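The list of H2AZ peaks deposited by the authors holds positions counted from 0 (printed here from 1), peak names and a score of unnamed unit, sorted from high to low. MACS appears in the deposited peak names; for its version, settings and control, nothing is stated (not given in the sources used here). Per the submitters' processing notes, CASAVA 1.4, Bowtie2 2, FastQC and the build mm9 were used. Positions were nevertheless read as GRCm38: protein-coding gene ends of the GRCm38.p6 table of RefSeq had 51.6% of peaks within 1 kb, against 8.26 and 8.32% after shifts of 1000000 bp downwards and upwards. None was converted.

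Out of 21592 peaks, 46 numbered after the Y chromosome peaks, and so out of order, were left out. Gene positions are the outermost ends in the RefSeq table (49595 annotated genes on chromosomes). Strand, starts and promoter sequences came from the RefSeq promoter table, with 32851 starts of 27025 genes. The members and lists were chosen with earlier results of these data known. The text names all members with their peaks and neighbouring genes, and of each pathway list the 2 genes with the highest end peak and the alphabetically first 2 with none. Depth is unknown, so no interval was given and no test was made; shares are set beside those of all protein-coding genes. Alternatives changed the window, overlap, score limit, peak merging, shared peaks, flank and promoter length. The computations used Python 3.11.15, numpy 2.4.6, pandas 2.3.3 and matplotlib 3.10.9. On simulated data, 200 of 200 planted end peaks were found and 0 of 21774 genes differed from a direct comparison.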

Additional observations from a re-analysis of the deposited data

How the results depend on the processing

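The count of members with an end peak was 6 to 8 of 10 under the 7 alternatives tried. Bmp4 joined with windows of 5 kb, and Chrd left when the peak's midpoint had to lie within the window or when peaks also at another gene's end were dropped. Over the same alternatives the share of all protein-coding genes ran from 41.3 to 60.8%, and the pathway lists from 26 of 51 (peaks of at least the median score) to 44 of 51 (windows of 5 kb). With peaks at or above the median score, 7 members kept an end peak, against 44.4% of all genes. The count of members with an interior peak was 3, against 13.8% of all genes, a share not matched to the lengths of the members. It was 2 from 5 kb inside (9.92%), 4 by the midpoint (16.8%) and 0 with peaks at or above the median score (6.09%). Flanking peaks were present at 2 members within 20 kb, at 0 within 10 kb and at 4 within 50 kb, against 44.2, 27.2 and 65.6% of all genes. The flanking count was 1 with peaks at or above the median score (Chrd), against 31.3% of all genes, and 1 without peaks at gene ends (Bmp7), against 20.4%. These changes follow from the construction of each alternative. A peak at the 5′ end was present in 4 to 6 of 7 members. The highest end score of each member was the same for the peak nearest to an end, and the median CpG ratio over 1 start per gene, the one farthest upstream in each of 7 genes, was 0.751, and 0.745 for the 250 bases before the start. Over all 9 listed starts, an alternative added after seeing the data, it was 0.419, since 3 of the 9 are the inner starts of Bmpr1b. No paired analysis was possible because there was 1 library per group. Some numbered peaks were not analysed here, so a gene without a listed peak may have had one among them. If the caller numbered all its peaks by position, this does not extend to Bmp5, around which no number was missing. Depth limits are unknown.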
